A study of Danio rerio with 21 samples.

Results

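The 6 genes described here encode the zebrafish enzymes, receptors and carrier of vitamin D: cyp2r1, cyp27b1 and cyp24a1 (the enzymes), vdra and vdrb (the receptors) and gc (the carrier). They were picked by name from the 36351 genes of the count table, and each symbol matched 1 row. The study had named the 3 enzymes from network modules built on the 5 dpf samples, so their levels at 5 dpf were chosen from these same values and are given as a description with no test. The other 3 genes were taken as the remaining parts of the same pathway.

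Vitamin D becomes a hormone in 2 hydroxylation steps. Cyp2r1 is a 25-hydroxylase that makes the circulating form 25-hydroxyvitamin D, and Cyp27b1 is the 1-alpha-hydroxylase that converts it to calcitriol, the active hormone. Cyp24a1 is the 24-hydroxylase that starts the breakdown of both forms. Calcitriol binds the vitamin D receptor, a nuclear receptor that works as a heterodimer with a retinoid X receptor, and zebrafish carry a pair of receptor genes, vdra and vdrb. The gc gene encodes the vitamin D binding protein, a plasma protein made mainly by the liver. In mammals, calcitriol lowers CYP27B1 and raises CYP24A1 in the kidney, parathyroid hormone raises CYP27B1, and FGF23 with its co-receptor Klotho lowers it. In fish, calcitriol acts on calcium uptake by skin and gill ionocytes and on the skeleton.

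RNA was measured in 21 pools of whole EK-strain larvae, each pool holding 4 to 6 larvae, with 3 pools in each of 7 groups. The pomgnt2 line carries frameshift mutations made with CRISPR-Cas9 in a gene for a glycosyltransferase of alpha-dystroglycan. At 5 days post-fertilization (dpf), WT (+/+), Het (+/-) and ZKO (-/-) larvae had +/- mothers, and MHet (+/-) and MZKO (-/-) larvae had -/- (ZKO) mothers. At 10 dpf only MHet and MZKO larvae were sequenced. No group received a treatment. The study kept larvae of the later age apart by genotype until collection. Genotype and housing therefore cannot be told apart in MZKO against MHet at 10 dpf. All larvae of ZKO females came from a different kind of cross than those of Het females, so the mother's genotype and the cross cannot be told apart, and the 10 dpf pools form another batch in the labels, so age and batch cannot be told apart.

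The 21 pools held 16959935 to 22439739 counts on genes. Levels are CPM, the counts scaled to a common library size after TMM normalization, and 3 counts, taken as the smallest detectable level, corresponded to 0.133 to 0.196 CPM for counting error only. CPM is not corrected for gene length, so levels are compared between groups and not between genes. The level of pomgnt2 itself was 13.1 to 19.9 CPM over the 21 pools, and the knockout groups overlapped the others, so this RNA does not check the labels. In whole larvae, fewer cells of a type and less RNA per cell cannot be told apart. Replicate pools differed by a chi-square of 6.28 to 23.0 per gene, more than counting error. Nothing says that the pools of a group came from separate clutches, so p-values measure only the spread between these pools.

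**Figure D1:**
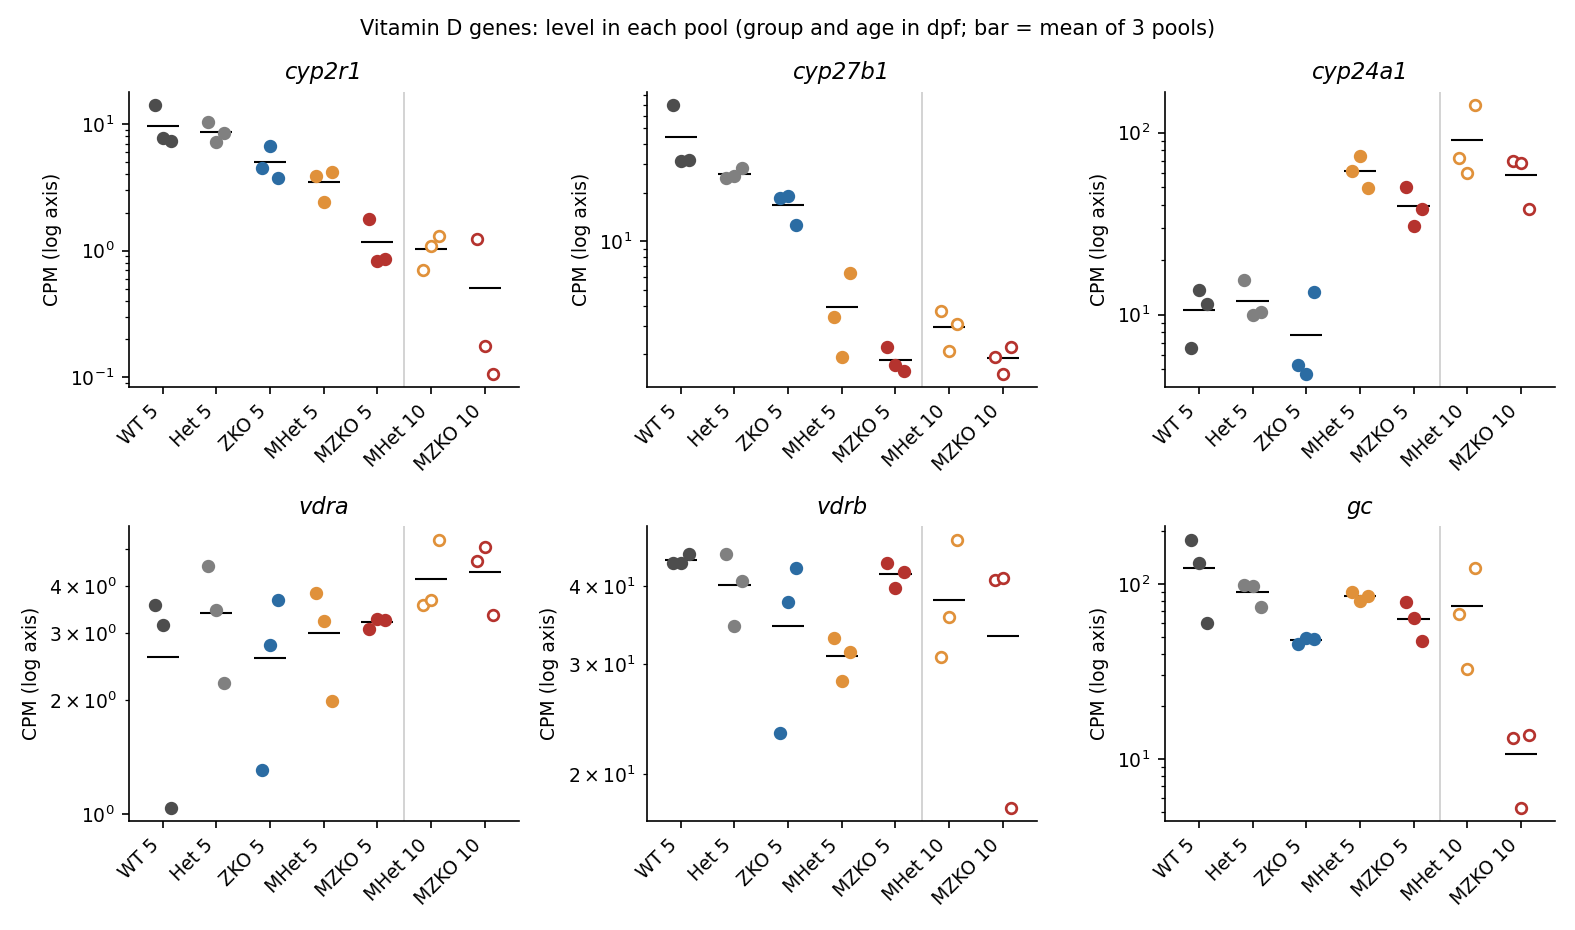
Level of the 6 vitamin D genes in each of the 21 pools, as CPM on a log axis that differs between panels, by group and age in dpf. Points are pools, filled at 5 dpf and open at 10 dpf, and bars are means of 3 pools. In the panels of cyp27b1 and cyp24a1 the 6 pools of MHet and MZKO at 5 dpf lie wholly below or wholly above the 9 pools of WT, Het and ZKO. For vdra each group overlaps the next in the order of means. For vdrb the 3 MHet pools at 5 dpf overlap those of ZKO and lie below those of WT, Het and MZKO of that age.

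The level of cyp27b1, the gene for the enzyme that makes the active hormone, was lowest in the offspring of ZKO females. At 5 dpf it was 69.5, 31.2 and 31.7 CPM in WT and 24.6, 25.3 and 28.4 CPM in Het. It was 18.6, 19.1 and 12.6 CPM in ZKO. Each of these pools was above every pool from ZKO females, in which cyp27b1 was 3.42, 1.93 and 6.38 CPM in MHet and 2.22, 1.71 and 1.58 CPM in MZKO. In counts, the gene had 251 to 1381 per pool in the 9 pools from Het females and 31 to 135 in the 6 pools from ZKO females, so the low values were above the detection limit. In this contrast of mothers 6.01% of all 24846 genes tested were called by edgeR's quasi-likelihood test, at an adjusted p under 0.01 with a log2 fold change beyond 0.7 either way. The enzymes were chosen for this contrast, so nothing is read from that share for them.

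Averaged over both genotypes, cyp27b1 in offspring of ZKO females was at 0.129 of its level in Het and ZKO (log2 fold change -2.96). Within each genotype the difference was -2.73 for MHet against Het and -3.19 for MZKO against ZKO. The groups also stood in an order within each kind of mother. By their means, cyp27b1 was 44.1 ± 21.9 CPM in WT (SD, n = 3), 26.1 ± 2.02 CPM in Het, 16.8 ± 3.62 CPM in ZKO, 3.91 ± 2.26 CPM in MHet and 1.83 ± 0.338 CPM in MZKO. At 5 dpf the neighbours WT and Het, Het and ZKO, and ZKO and MHet did not overlap, while MHet and MZKO did. The share of all genes with pools apart in this way was not counted, and the order was not tested. Of all 24846 genes, edgeR called 0 in Het against WT and 0 in ZKO against Het. The WT mean rests on pool 1: without it, the log2 fold change of Het against WT went from -0.76 to -0.27, and that of ZKO against WT from -1.39 to -0.91. Similarly, MZKO against MHet was -1.10, and -0.56 without MHet pool 3.

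The gene for the first activating step, cyp2r1, had the same order of groups at 5 dpf, with a smaller distance between the kinds of mother. Its level was 14.1, 7.74 and 7.32 CPM in WT, 10.4, 7.22 and 8.47 CPM in Het and 4.5, 6.74 and 3.76 CPM in ZKO. It was 3.86, 2.43 and 4.2 CPM in MHet and 1.78, 0.83 and 0.865 CPM in MZKO. Here the pools of ZKO and MHet overlapped, whereas the 3 MZKO pools were below every other pool of that age. The log2 fold change of offspring of ZKO against Het females was -1.71. It was -1.30 for MHet against Het and -2.11 for MZKO against ZKO. Within the offspring of ZKO females, MZKO differed from MHet by -1.60, and within those of Het females ZKO differed from Het by -0.79 and from WT by -0.95. Lower cyp2r1 in the -/- larvae was therefore seen under both kinds of mother, and the difference between those distances (-0.80) was not tested. The study reports that ZKO larvae of this age still have pomgnt2 function supplied by the mother.

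The catabolic gene cyp24a1 went the other way. At 5 dpf it was 6.59, 13.7 and 11.5 CPM in WT, 15.6, 9.92 and 10.3 CPM in Het and 5.29, 4.74 and 13.2 CPM in ZKO. It was 61.6, 74.0 and 49.8 CPM in MHet and 50.4, 30.5 and 38.0 CPM in MZKO. The lowest pool from a ZKO female was thus above the highest pool from a Het female, 15.6 CPM. The log2 fold change of offspring of ZKO against Het females was 2.36 (5.14-fold higher), with 2.38 for MHet against Het and 2.34 for MZKO against ZKO. WT, Het and ZKO overlapped one another, and so did MHet and MZKO (-0.64 for MZKO against MHet). ZKO pool 3 stood apart from the other ZKO pools: without it, ZKO against WT went from -0.43 to -1.08 and ZKO against Het from -0.61 to -1.25.

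Both counts within a pool gave a ratio that does not depend on library size. The counts of cyp24a1 over those of cyp27b1 were 0.0949 to 0.440 in the 3 WT pools, 0.364 to 0.632 in Het and 0.249 to 1.05 in ZKO. In the offspring of ZKO females at 5 dpf the ratio was 7.81 to 38.3 in MHet and 17.9 to 24.1 in MZKO. At 10 dpf it was 19.5 to 45.9 in MHet and 17.1 to 44.9 in MZKO. Larvae of the 2 kinds of mother did not overlap, while MHet and MZKO overlapped at both ages. Since both genes were already apart by mother at 5 dpf, in opposite directions, their ratio had to be apart at that age. It restates those levels and is no separate result. Gene lengths do not enter the comparison, because the same pair of genes is compared in every pool.

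**Figure D2:**
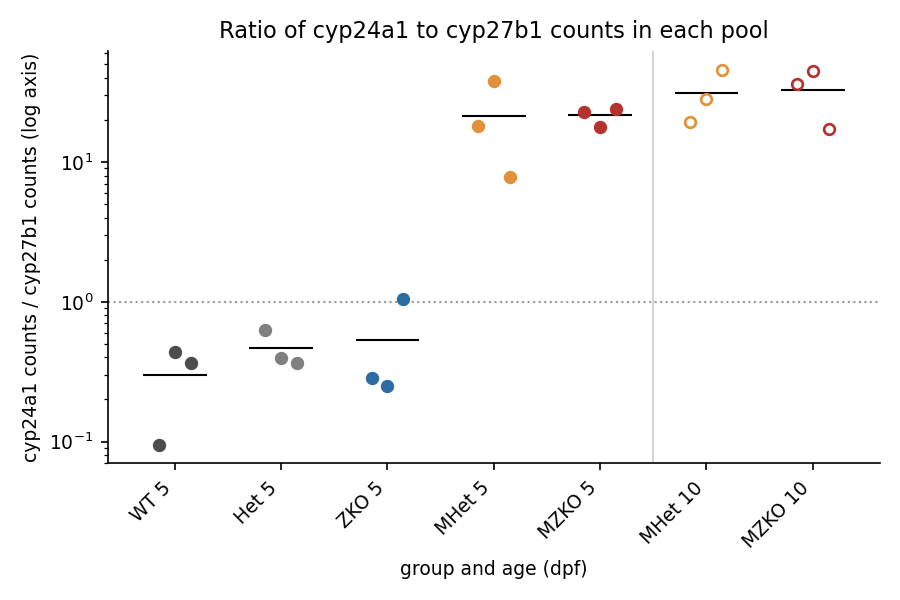
Ratio of cyp24a1 counts to cyp27b1 counts in each pool on a log axis, by group and age in dpf, with the mean of 3 pools as a bar and a dotted line at equal counts. The 9 pools of WT, Het and ZKO lie between 0.0949 and 1.05, and the 12 pools from ZKO females between 7.81 and 45.9.

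The receptor genes did not follow the enzymes. For vdrb, the receptor gene with more counts, the level was 43.6, 43.6 and 45 CPM in WT, 45.1, 34.5 and 40.8 CPM in Het and 23.3, 37.7 and 42.8 CPM in ZKO at 5 dpf. It was 33.1, 28.2 and 31.4 CPM in MHet and 43.7, 39.8 and 42.2 CPM in MZKO. The 3 MHet pools were below the 3 MZKO pools and below the 3 Het pools. The differences were small: 0.43 on the log2 scale for MZKO against MHet (SE 0.156, adjusted p = 0.0955, edgeR) and -0.37 for MHet against Het (SE 0.157, adjusted p = 0.124). Neither passed the threshold. In the contrast of mothers vdrb differed by -0.05 (SE 0.111, adjusted p = 0.777). The interaction of the mother's and the larva's own genotype was 0.64 (SE 0.221, adjusted p = 0.138) in a test that called 0.31% of all genes.

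For vdra the level was low in every group. It was 3.57, 3.16 and 1.04 CPM in WT, 4.5, 3.45 and 2.22 CPM in Het, and 1.31, 2.80 and 3.66 CPM in ZKO. It was 3.82, 3.22 and 1.98 CPM in MHet and 3.08, 3.27 and 3.26 CPM in MZKO. Every neighbour in the order of group means overlapped the next. The contrast of mothers gave 0.07 (SE 0.279, adjusted p = 0.879, edgeR), which leaves room for differences larger than that error in either direction. With 20 to 87 counts per pool at 5 dpf, vdra had the largest error of the 3 genes tested in this contrast. Since vdra and vdrb are paralogs, reads could be split between them by the counting, whose options for multi-mapping reads are not given in the sources used here.

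The carrier gene gc followed neither the enzymes nor the receptors. Its level at 5 dpf was 179, 131 and 59.8 CPM in WT, 98.8, 97.1 and 73.6 CPM in Het and 45.2, 49.3 and 48.5 CPM in ZKO. It was 90.3, 79.7 and 85.3 CPM in MHet and 79.0, 64.1 and 46.9 CPM in MZKO. The 3 ZKO pools were below every WT, Het and MHet pool. ZKO against WT gave a log2 fold change of -1.36 (SE 0.33), which did not pass the threshold in edgeR (adjusted p = 0.0481) and passed it in DESeq2 (adjusted p = 0.00144), in a comparison in which edgeR called 0.547% of all genes. WT pool 3, the lowest of its group, decided the edgeR call: without it the value was -1.69 (adjusted p = 0.000465). ZKO against Het gave -0.91 (SE 0.329, adjusted p = 0.622), and passed only with those 2 groups alone in the fit (adjusted p = 6.37e-05). Offspring of ZKO against Het females gave 0.17 (SE 0.23, adjusted p = 0.624). Of vdra, vdrb and gc, edgeR called 0 in the contrast of mothers, where it called 6.01% of all genes. Among them 0 had an unadjusted p under 0.05 in edgeR, against 10112 of all 24846 genes. DESeq2 called 0 of them and 1638 of all genes.

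Liver genes moved with gc. The list of 10 liver markers (such as tfa, transferrin, and fabp10a, the liver fatty acid binding protein) was lower in ZKO than in WT in 10 of 10 genes, at a median of -1.35 on the log2 scale against 0.00 over all genes tested. edgeR called 0 of these 10. Their summed level was 3033 to 6191 CPM in WT, 3178 to 3842 CPM in Het and 2293 to 2412 CPM in ZKO. No liver marker was at 0 in any group. Other markers were lower in ZKO than in WT too, in 9 of 9 kidney tubule (median -0.77, 1 called) and 8 of 8 intestine genes (median -0.66, 0 called). So were 8 of 9 ionocyte and 5 of 5 bone genes (0 called), whereas 6 of 6 skeletal muscle genes were higher (median 0.23, 0 called). Het against WT had the same signs in 10 of 10 liver, 9 of 9 kidney tubule, 8 of 8 intestine and 6 of 6 muscle genes. Their medians were -0.41, -0.30, -0.31 and 0.18. ZKO was below Het in 10 of 10 liver genes (median -0.87), 8 of 9 kidney tubule and 8 of 8 intestine genes, and above it in 2 of 6 muscle genes. In Het against WT and in ZKO against Het, edgeR called 0 of all 24846 genes, these markers included. The part of these tissues in the gc difference was not tested.

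At 10 dpf, gc was 67.5, 32.7 and 123 CPM in MHet and 13.1, 5.24 and 13.6 CPM in MZKO. The groups did not overlap. The log2 fold change of MZKO against MHet was -2.79 (SE 0.66), or 0.145 of the MHet level. It did not pass the threshold in edgeR on the 6 pools (adjusted p = 0.119), where 0.0424% of all genes were called, 10 of 23597. It passed in DESeq2 (adjusted p = 0.00122) and in edgeR with all 21 pools in the fit (adjusted p = 0.00353). DESeq2 called 650 genes in this comparison. The 10 liver markers were again all lower in MZKO, with a median of -2.26 against 0.01 over all genes tested, and their sum was 2132 to 4776 CPM in MHet and 850 to 1316 CPM in MZKO. Intestine markers were lower as well in 8 of 8 genes (median -1.12), with summed levels of 1336 to 2033 and 473.3 to 1086 CPM, and kidney tubule markers in 8 of 9 (median -0.84). edgeR called 0 genes of these lists, and their part in the gc difference was not tested, nor was that of separate housing.

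**Figure D3:**
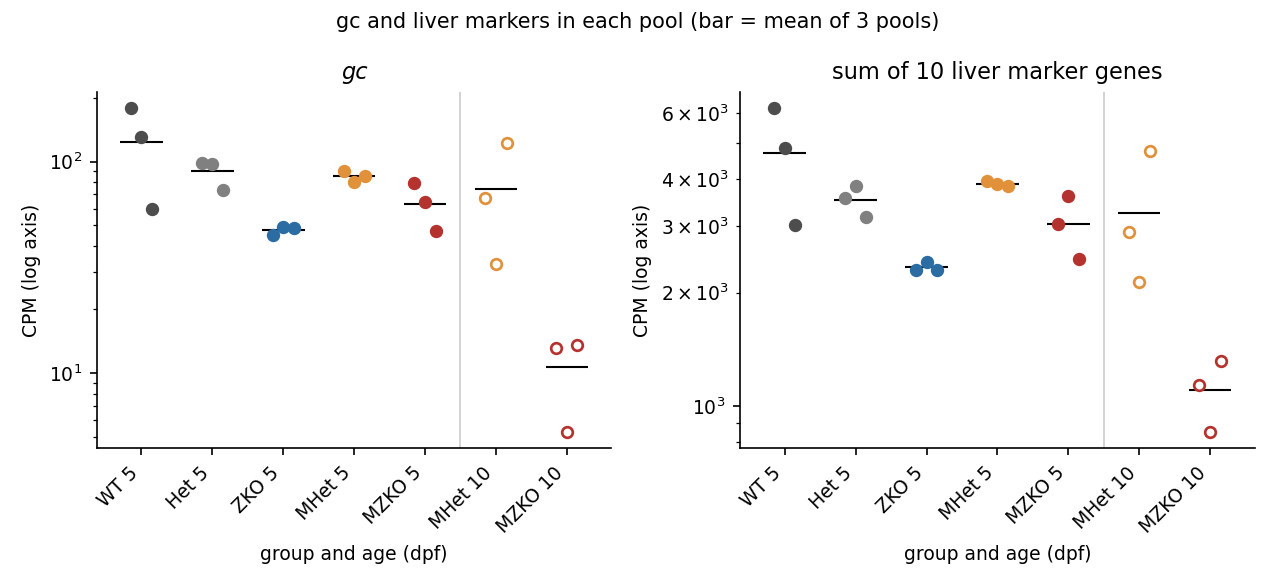
Level of gc (left) and the summed level of 10 liver marker genes (right) in each pool, both as CPM on log axes that differ in range, by group and age in dpf, with means of 3 pools as bars. In both panels the ZKO pools at 5 dpf and the MZKO pools at 10 dpf are low, with gc at 45.2 to 49.3 and 5.24 to 13.6 CPM. Single pools of other groups lie as low as the ZKO pools. For gc these are MZKO pool 3 at 5 dpf (46.9 CPM) and MHet pool 2 at 10 dpf (32.7 CPM). For the liver sum, the lowest MHet pool at 10 dpf is at 2132 CPM, against 2293 to 2412 CPM in ZKO.

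The remaining members were compared at 10 dpf in pools that the modules had not used. For cyp27b1 the level was 3.72, 2.10 and 3.07 CPM in MHet and 1.92, 1.52 and 2.23 CPM in MZKO, with overlapping pools and a log2 fold change of -0.64 (SE 0.304, adjusted p = 0.262, edgeR). For cyp24a1 it was 72.5, 59.9 and 141 CPM in MHet and 69.6, 68.1 and 38.1 CPM in MZKO, also with overlap (-0.64, SE 0.422, adjusted p = 0.465). The signs were those seen at 5 dpf, and neither gene passed. For cyp2r1 the level was 0.701, 1.08 and 1.31 CPM in MHet and 1.23, 0.175 and 0.106 CPM in MZKO. The last pair rested on 3 and 2 counts, at or under the detection limit, while MZKO pool 1 had 27 counts and lay within the MHet range. The fitted difference was -0.94 (SE 0.724, adjusted p = 0.498), and -2.82 without MZKO pool 1 (adjusted p = 0.0777).

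Neither receptor passed the threshold at 10 dpf, and the pools of MHet and MZKO overlapped for both. The vdra level was 3.56, 3.67 and 5.29 CPM in MHet and 4.66, 5.07 and 3.34 CPM in MZKO (log2 fold change 0.07, SE 0.257, adjusted p = 0.91, edgeR). The vdrb level was 30.8, 35.7 and 47.5 CPM in MHet and 40.9, 41.2 and 17.7 CPM in MZKO (-0.19, SE 0.364, adjusted p = 0.816). Of the 6 members edgeR called 0 in this comparison, where it called 0.0424% of all genes. An unadjusted p under 0.05 was found for 1 member (gc), and DESeq2 called 1 (gc).

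Between the ages, gc fell in MZKO, the only call that edgeR made among the members tested. From 5 to 10 dpf it changed by -2.56 on the log2 scale in MZKO (SE 0.485, adjusted p = 0.000641), to 0.17 of its earlier level, and the MZKO pools of the 2 ages did not overlap. In that comparison 19% of all genes were called. In MHet it changed by -0.20 (SE 0.437, adjusted p = 0.757), where 13.9% of all genes were called. The difference between these changes was -2.36 (SE 0.648), with an adjusted p of 0.0268 in edgeR that missed the threshold, in a test that called 3.6% of all genes. It passed in DESeq2 (adjusted p = 0.00275), and in edgeR without MHet pool 2 at 10 dpf (-2.71, adjusted p = 0.0065). In the same MZKO comparison 9 of the 10 liver markers were lower and 1 higher (median -1.81), with 6 called lower and 0 called higher. Neither vdra (0.46 in MHet and 0.44 in MZKO, adjusted p = 0.342 and 0.339) nor vdrb (0.30 and -0.33, adjusted p = 0.414 and 0.33) passed.

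The 10 dpf levels of cyp27b1 and cyp24a1 lay outside the range seen in larvae of Het females at 5 dpf. At 10 dpf cyp27b1 was 1.52 to 3.72 CPM over the 6 pools, below the 12.6 CPM of the lowest pool from a Het female at 5 dpf. Likewise cyp24a1 was 38.1 to 141 CPM, above the 15.6 CPM of the highest such pool. No larvae of Het females were sequenced at 10 dpf, so these values compare different ages and batches. Within the offspring of ZKO females, cyp2r1 was lower at 10 than at 5 dpf in both MHet (-1.78) and MZKO (-1.10, and -3.03 without MZKO pool 1 at 10 dpf). For cyp27b1 the change was -0.41 in MHet and 0.05 in MZKO, and for cyp24a1 0.56 in both.

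Clock genes are given beside the enzymes because their levels also differed by mother at 5 dpf. The study had named several of them from the same module of these samples, so they too are described with no test. Of 17 such genes found, 12 were lower and 5 higher in offspring of ZKO females, with a median of -0.75 on the log2 scale. The value was -2.07 for per1b, a period gene, and -2.96 for nr1d1, the repressor Rev-erb alpha. The level of per1b was 134 to 155 CPM in the 9 pools of WT, Het and ZKO, 34.0 to 41.3 CPM in MHet and 31.5 to 33.8 CPM in MZKO. At 10 dpf it was 149.5 to 169 CPM in MHet and 133 to 176 CPM in MZKO, overlapping the Het females' larvae at 5 dpf. The summed level of the 17 clock genes did not overlap them. It was 1850 to 2105 CPM in MHet and 2034 to 2302 CPM in MZKO at 10 dpf. At 5 dpf this sum was 1625 to 1752 CPM in WT, 1751 to 1804 CPM in Het and 1652 to 1809 CPM in ZKO. It was 948.9 to 1033 CPM in MHet and 987 to 1004 CPM in MZKO at that age. In the 10 dpf pools cyp27b1 was below and cyp24a1 above every pool from Het females at 5 dpf. These comparisons are between different ages and batches, because no larvae of Het females were sequenced at 10 dpf. The part of the clock in the enzyme levels was not tested. The labels give no time of day for the collection of the pools.

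**Figure D4:**
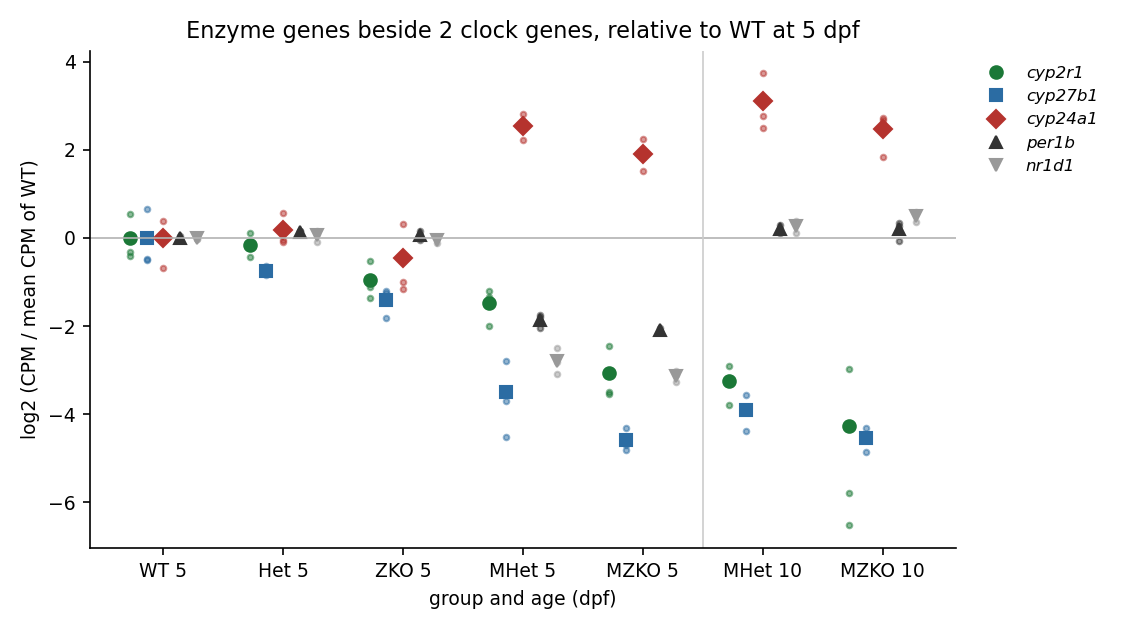
Levels of cyp2r1, cyp27b1 and cyp24a1 and of the clock genes per1b and nr1d1 in each group, as log2 of CPM over the mean CPM of WT at 5 dpf. Large symbols are group means and small points are pools, with 3 pools in each group. At 10 dpf the clock genes lie near 0, while cyp24a1 lies above and cyp2r1 and cyp27b1 lie below it in both groups.

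Other genes of the pathway were read from a list of 87 symbols in 8 roles, of which 78 were found by symbol and 72 passed the filter on low counts at 5 dpf. In the contrast of mothers 8 of these 72 were called, 5 higher and 3 lower, where 6.01% of all genes were called. The median over the 72 genes was 0.09 on the log2 scale, against 0.00 over all genes. The called genes belonged to 2 roles, hormones that set activation (4 of 12) and target genes known from mammals or fish (4 of 22). Of the other hydroxylases proposed for vitamin D, the redox partners and the receptor partners, edgeR called 0 of 6 each. It called 0 of 4 precursor sterol enzymes, 0 of 10 coregulators and 0 of 6 genes for uptake of the carrier. Over the whole list, the 8 called genes included, 42 of 72 had an unadjusted p under 0.05 in edgeR, against 10112 of all 24846 genes. DESeq2 called 9 genes of the list and 1638 of all genes.

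Among the hormone genes, kl (Klotho, the co-receptor of Fgf23) rose by 1.13 on the log2 scale (SE 0.224, adjusted p = 0.000444, edgeR), with 0.569 to 2.07 CPM in the WT, Het and ZKO pools and 1.98 to 3.27 CPM in the MHet and MZKO pools. These ranges overlapped. The stanniocalcin genes stc1l (1.07) and stc2b (1.36) were also called higher. Stanniocalcins are known in fish as hormones that limit calcium uptake. In the pools stc1l was 2.84 to 7.78 CPM in larvae of Het females and 9.59 to 11.5 CPM in those of ZKO females, without overlap. The ranges of stc2b, 0.372 to 3.37 and 2.22 to 3.78 CPM, overlapped through WT, which is not part of this contrast. The calcitonin gene calca fell by 0.76 (SE 0.117, adjusted p = 2.46e-05, edgeR). Its ranges, 8.40 to 15.3 and 6.50 to 9.82 CPM, also overlapped through WT. For pth1b, a parathyroid hormone gene, the value was -0.93 (adjusted p = 0.0123), which missed the threshold. The genes pth1a and fgf23 did not pass the filter at 5 dpf, with at most 10 and 14 counts in a pool.

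Among the target genes, the phosphate transporters moved in different directions. The gene slc34a2b rose by 1.47 (SE 0.242, adjusted p = 0.00093, edgeR) and slc34a1a by 1.39 (SE 0.285, adjusted p = 0.00113), whereas slc34a2a fell by 1.56 (SE 0.278, adjusted p = 0.00161). In the pools, slc34a2b was 9.25 to 26.1 CPM in larvae of Het females and 28.3 to 58.5 CPM in those of ZKO females, and slc34a2a was 23.2 to 78.7 and 9.45 to 17.6 CPM. Neither pair of ranges overlapped. Those of slc34a1a did, at 1.02 to 3.77 and 2.54 to 5.95 CPM. The gene cdkn1a, which encodes the cell cycle inhibitor p21, fell by 1.48 (SE 0.0974, adjusted p = 7.33e-11). The calcium channel gene trpv6, a classical target of the receptor in mammals, had a value of -0.59 (SE 0.118, adjusted p = 0.0013), inside the fold limit. The same held for fdx1 (0.48, adjusted p = 7e-05), a ferredoxin, and lrp2a (0.56, adjusted p = 1.43e-06), which encodes the uptake receptor megalin. For rxraa, a retinoid X receptor, the value was -0.17 (adjusted p = 0.0337). In the same contrast, where 6.01% of all genes were called, kidney tubule markers were higher in 8 of 9 genes, with 3 called and a median of 0.44. Ionocyte markers were higher in 8 of 9 with 1 called (median 0.31), and 2 of 5 bone genes tested were called lower (median -0.09). These lists share genes with the pathway list: kidney tubule holds lrp2a, cubn and slc20a1a, ionocytes holds trpv6, and bone holds spp1 and bglap. The part of these cell types in the pathway genes was not tested.

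**Figure D5:**
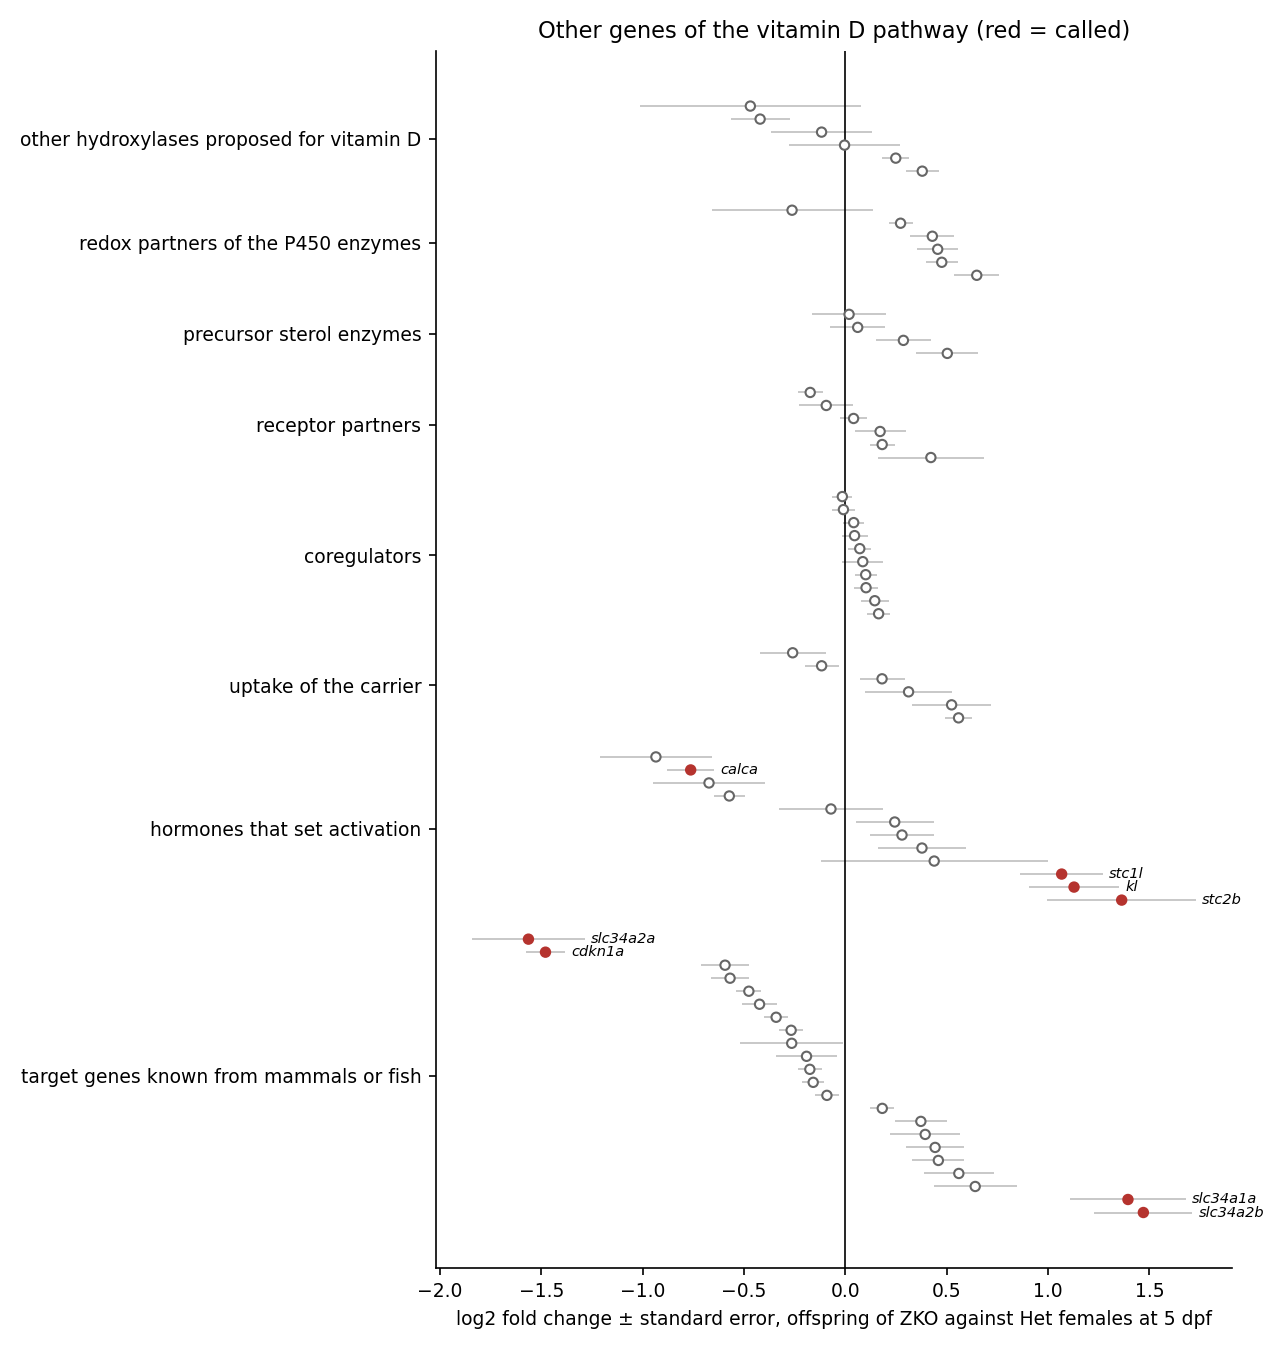
Log2 fold change with its standard error of the 72 other pathway genes that were tested, in offspring of ZKO against Het females at 5 dpf, grouped by role. Red points are the 8 genes called, which lie among the hormones that set activation and the target genes, and open points are the other genes.

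Within each genotype the contrast gave fewer or other calls. MHet against Het, in which 3.79% of all genes were called, had 3 of the 72 called, all lower: trpv6 (-0.77), slc8a1b, a sodium-calcium exchanger (-0.72), and cdkn1a (-1.31). MZKO against ZKO, in which 5.6% of all genes were called, had 4 higher and 4 lower. The higher genes were the redox partners porb (0.88) and fdxr (0.84), kl (1.33) and the phosphate transporter slc20a1a. The lower ones were stc2a (-0.83), calca (-0.93), calb1 (-0.78), which encodes a calbindin, and cdkn1a (-1.65). ZKO against WT, in which 0.547% of all genes were called, had 1 of 72 called, fdxr (-0.79). It encodes the ferredoxin reductase that passes electrons to mitochondrial P450 enzymes. The count of pathway genes was 7 without WT pool 3, where the count over all genes went from 136 to 596. MZKO against MHet at 5 dpf, where 0.885% of all genes were called, had 0 called by edgeR and 0 by DESeq2. In edgeR 14 of the 72 had an unadjusted p under 0.05, against 5888 of all 24846 genes.

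Between MZKO and MHet at 10 dpf, edgeR called 0.0424% of all genes and DESeq2 650, and 4746 had an unadjusted p under 0.05 in edgeR. Of 70 pathway genes, edgeR called 0, DESeq2 called 5, and 25 had an unadjusted p under 0.05. The smallest adjusted p was that of cyp3a65 (-1.87, SE 0.213, adjusted p = 0.0146, edgeR), a P450 gene of liver and intestine, at 371, 242 and 381 CPM in MHet and 98.4, 68.9 and 105 CPM in MZKO. These groups did not overlap, and they also differed in housing.

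Between the ages, edgeR called 10 of 73 pathway genes higher and 5 lower in MHet, where 13.9% of all genes were called. In MZKO it called 9 higher and 15 lower, where 19% of all genes were called. Among the enzymes that act on the sterols from which vitamin D and cholesterol derive, ebp rose by 3.18 on the log2 scale in MHet and by 2.64 in MZKO, and sc5d by 2.62 and 1.76. The trpv6 gene fell by 2.86 in MHet and by 3.49 in MZKO, and slc34a1a by 1.92 and 2.59. In both groups cdkn1a rose, by 1.52 in MHet and 1.5 in MZKO, so its level at 10 dpf was 13.5 to 21.2 CPM against 14.4 to 19.8 CPM in larvae of Het females at 5 dpf. Among the hormone genes stc1l rose in MHet (0.99). In MZKO the largest changes were those of pth1b (2.77), stc2b (-2.53), klb, a co-receptor related to Klotho (-1.66), and pthlha, a parathyroid hormone-related gene (-1.63). In MZKO, beside the 19% of all genes called, 3 of the 6 genes for uptake of the carrier were called lower. They were amn (-2.81), cubn (-1.97) and dab2 (-1.13). In MHet edgeR called 0 of these 6. The proteins of amn and cubn form the receptor through which the kidney recovers the vitamin D binding protein. Of the kidney tubule markers, which include cubn, 8 of 9 genes were lower in the same comparison, and 6 of these were called (median -1.23).

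The genes whose level over the 15 pools at 5 dpf was most like that of each member were named by Pearson r of log2 CPM, with no test. The names depended on this measure. By Spearman rho, fewer than 2 of the 3 names were kept for each of the 6 members. For cyp2r1 they were si:ch211-113d11.5 (0.947), rtn4rl2b (0.941) and klf9 (0.937). For cyp27b1 they were si:rp71-39b20.4 (0.952), mych (0.951) and cdkn1a (0.946), which ranked 13, 86 and 390 by Spearman rho. The genes most like cyp24a1 were pdcd6ip (0.958), kcnj1a.5 (0.947) and si:ch211-66i15.4 (0.943). Over the 6 pools at 10 dpf the same pairs gave 0.703, 0.765 and 0.858 for cyp2r1, 0.493, 0.0173 and 0.836 for cyp27b1, and 0.174, 0.154 and 0.166 for cyp24a1. For cyp27b1 and cyp24a1 the pools fall into 2 sets by mother at 5 dpf, and all r over them share that split. For cyp2r1 the level also differed by mother, but the pools overlapped (3.76 to 14.1 CPM from Het females and 0.83 to 4.2 CPM from ZKO females).

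The genes most like gc were itih3b (0.978), ftcd (0.978) and apom (0.971), with 0.979, 0.963 and 0.986 at 10 dpf. For vdra they were insrb (0.899), ptch1 (0.846) and ncoa1 (0.844), which ranked 2, 10 and 415 by Spearman rho. For vdrb they included nampta (0.966) and tns1b (0.913). Among the members themselves, cyp2r1 and cyp27b1 gave 0.928 and cyp27b1 and cyp24a1 gave -0.836 over the 15 pools, and 0.387 and 0.39 over the 6 pools at 10 dpf. The 15 pools hold larvae of both kinds of mother, and the 6 pools hold offspring of ZKO females only. The opposite signs of the second pair therefore cannot be read as a difference between the ages.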

How the data were processed

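RNA of 21 pools of whole zebrafish larvae was sequenced as poly(A) RNA in directional libraries. The authors trimmed reads with Trim Galore, aligned them with HISAT2 to danRer11 (GRCz11) and counted them on genes with featureCounts, with no version in the sources used here. The deposited values are these raw counts, without normalization. Whether the counting used strand is not given in the sources used here, so reads of overlapping antisense genes cannot be told apart.

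Counts were tested with edgeR 4.0.16 (R 4.3.3): filterByExpr, TMM scaling, robust quasi-likelihood fits and Benjamini-Hochberg adjustment over all genes tested. The 15 pools at 5 dpf, the 6 pools at 10 dpf and, between ages, all 21 pools were each fitted once, by group. Calls needed an adjusted p below 0.01 with a log2 fold change beyond 0.7 either way, the thresholds of the study. Standard errors (SE) were derived from each log2 fold change and its F statistic. All 6 members were found as protein-coding genes by symbol in a RefSeq table of the assembly GRCz12tu, another build, so no coordinates are given. None of the 6 lies on the chromosome of pomgnt2 there.

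The members, the pathway list and the marker lists were chosen with earlier results of these data known. Named genes are all 6 members, the pathway genes called (at most 4 per role and comparison, by absolute log2 fold change), defining genes of a role, and for each member the 3 genes most like it by Pearson r (log2 CPM, prior count of 2). At 10 dpf cyp3a65, at 5 dpf pth1b, and the clock and liver markers were named after their values were seen. Of the 87 pathway symbols, 9 not matched by symbol were not analysed here, as were 5 of 22 clock symbols. Some single genes that this rule would name are not reported here. Alternatives were DESeq2 1.42.0, other scaling and filters, a replicate block, other sets of pools in the fit, a looser threshold and each pool left out. The fits were tested on simulated data. Python 3.11.15 with pandas 2.3.3 and matplotlib 3.10.9 made the plots.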

Additional observations from a re-analysis of the deposited data

Results flagged for a closer look

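The difference between MZKO and MHet was not the same at 5 and at 10 dpf in 5 of 73 pathway genes, 4 of which are given here, by edgeR's test of that difference in the fit of all 21 pools. That test called 3.6% of all genes, and age, batch and housing by genotype cannot be told apart in it. The difference between the ages was -1.68 on the log2 scale for pthlha (adjusted p = 0.00576), -1.03 for fdxr (adjusted p = 0.00483), 1.07 for stc2a (adjusted p = 0.000678) and 0.81 for ep300b (adjusted p = 0.000222). None of the vitamin D genes tested met the threshold for such a difference. The nearest was gc, with -2.36 (adjusted p = 0.0268).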

How the results depend on the processing

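Over 72 results for the vitamin D genes, 1107 of 1130 alternatives were counted as unchanged, and 0 reversed a called value. For a tested gene, unchanged meant the same call, also where the sign of an uncalled value changed. For an enzyme without a test, it meant a value within the spread of pools. In the contrast of mothers, for example, vdra ranged from -0.079 to 0.238 and vdrb from -0.150 to 0.046 with a pool left out. The exceptions among tested genes were all gc, which gained a call. For ZKO against WT its value was -1.365 in DESeq2 and -1.362 at an adjusted p under 0.05 with no fold limit, and -1.691 to -1.002 with a pool left out. For ZKO against Het it was -0.9142 with only those groups in the fit. For gc, MZKO against MHet at 10 dpf gave -2.802 in DESeq2, -2.728 with a replicate block and -2.783 with all 21 pools in the fit. The difference between the ages was -2.371 in DESeq2, -2.357 at the looser threshold and -2.709 to -1.785 with a pool left out. The cause was not tested.

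With a pool left out, cyp27b1 ranged from -3.261 to -2.411 for MHet against Het, -1.587 to -0.9112 for ZKO against WT, -0.9529 to -0.2688 for Het against WT, -1.408 to -0.5598 for MZKO against MHet at 5 dpf, -0.7661 to 0.07431 for the interaction, -0.7272 to 0.1075 for MHet between ages and -0.08421 to 0.7718 for the difference between ages. The range of cyp24a1 was 2.091 to 2.99 for MZKO against ZKO, -1.078 to -0.1795 for ZKO against WT, -1.254 to -0.3549 for ZKO against Het and -0.2867 to 0.612 for the interaction. That of cyp2r1 was -3.028 to -0.6482 for MZKO between ages and -1.231 to 1.144 for the difference between ages. The signs of the interactions of cyp27b1 and cyp24a1 and of several age values of the enzymes thus depend on single pools. The interaction of cyp2r1 kept its sign, at -1.254 to -0.5107.

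Counts of called genes depended on the tool and the threshold. At 10 dpf the count was 10 in edgeR and 650 in DESeq2. For ZKO against Het it was 0 in edgeR, 16 in DESeq2 and 51 in edgeR with only those groups in the fit. With the looser threshold it went from 1494 to 7788 in the contrast of mothers and from 4811 to 11176 in MZKO between ages. DESeq2 called 435 against 136 for ZKO against WT, 197 against 77 for the interaction and 1462 for the difference between ages, more than 1.5 times the edgeR count. Of the pathway genes DESeq2 called 6 against 3 for MHet against Het, 6 against 1 for ZKO against WT, 5 against 0 at 10 dpf and 9 against 5 for the difference between ages. At an adjusted p under 0.05 with no fold limit, 38 pathway genes passed in the contrast of mothers and 4 at 10 dpf. Leaving out a pool gave 0 to 7 pathway genes for ZKO against WT and 3 to 8 for the difference between ages. Over all genes these counts were 23 to 596 and 469 to 1337. The replicate numbers gave no sign of pairing, with own-number correlations best in 0 to 4 of 6 pools, and the replicate block gave 365 calls at 10 dpf and 1425 in the contrast of mothers. Depth limits cyp2r1 at 10 dpf and vdra.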
